A study of Mus musculus with 24 samples.

Results

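Diaphragm muscle of PHIL mice was set against that of wild type (WT) mice at 2 days post-infection (dpi) with Trichinella spiralis. The arrays were chosen by their labels: 3 PHIL arrays and 3 WT arrays at 2 dpi, which are 6 of the 24 arrays of the series, each from the whole diaphragm of 1 mouse. PHIL mice carry a transgene in which the promoter of the eosinophil peroxidase gene drives a toxin in eosinophils, so that these cells are ablated. WT mice were C57BL/6 mice that had been purchased, whereas the PHIL mice, on the C57BL/6 background, had been bred at the authors' institution, so the source of the mice and the genotype cannot be told apart. Both groups had received 25000 newborn larvae by retro-orbital injection. Naive PHIL and WT mice (2 arrays each) and PHIL and WT mice at 7 dpi (3 arrays each) make up the 16 arrays normalised together, and Rag1-/- mice were not used here. Age and sex of the mice are not given in the sources used here. Levels below are log2 normalised signals of Illumina MouseRef-8 v2.0 bead arrays, on which a difference of 1 is a doubling, and levels of different genes are not comparable because each gene has its own probe.

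Newborn larvae of T. spiralis travel in the blood and enter skeletal muscle cells, where they stay and grow. Eosinophils gather around the larvae, and they are known as a source of interleukin-4 in injured muscle. Injured muscle also mounts an interferon response and a regenerative program that is run by myogenic factors such as Myod1. The comparison at 2 dpi asks how far the muscle of mice without eosinophils stood from that of WT mice soon after the larvae had arrived, before larval growth begins.

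The 6 arrays were alike in depth. Between 9695 and 10464 probes were detected on the PHIL arrays and between 9735 and 10082 on the WT arrays, and 8226 genes were tested. Of 40 genes of mature striated muscle that could be tested, 39 were detected on some array at 2 dpi, beside 7826 of all 8226 genes tested. Only genes detected on at least 2 of the 16 arrays were tested, so this count is no check of the tissue. Eosinophil transcripts gave no check of the genotype. Of 10 eosinophil genes with a probe, including Epx, Prg2, Siglecf and Ccr3, 9 were detected on too few of the 16 arrays to be tested, and Rnase2a was detected on 0 of 3 PHIL arrays and 0 of 3 WT arrays at 2 dpi. Some arrays stood apart from the others of their group. PHIL replicates 2 and 3 and WT replicate 3 were high for part of a list of hepatocyte genes, as described below. WT replicate 1 gave 7.72 for Eif2s3y, a gene of the Y chromosome, against 4.42 to 4.62 on the other 5 arrays at 2 dpi. It also gave the lowest level at 2 dpi of Xist, the RNA of the inactive X chromosome, with 4.93. The casein gene Csn1s2b was at 8.20 on that array and between 4.66 and 5.17 on the other 5. Many of the results below, but not all, are also given without 1 or more of these arrays. Some are given with the hepatocyte or the Eif2s3y level of each array as a covariate.

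PHIL and WT diaphragms were close at 2 dpi. The called count of PHIL against WT genes was 0 of 8226 (0%) in limma at an adjusted p of at most 0.05 and a difference of at least 1.5-fold (0.59 on the log2 scale). The smallest adjusted p was 0.114. At an unadjusted p under 0.05, 357 genes were higher (4.34%) and 424 lower (5.15%) in PHIL, together 781 genes or 9.49%. At the adjusted threshold, the most genes called under other processing were Ptprb, Chodl and Tesmin, with arrays weighted by their quality. A different rule, an unadjusted p under 0.05 and 2-fold, called 10. The median absolute difference between the strains was 0.12 on the log2 scale, with 90% of genes within 0.33 and 99% within 0.61, and the median standard error of a gene's difference was 0.14. The 95% interval of the difference lay inside 2-fold for 8036 genes (97.7%) and inside 1.5-fold for 6173 genes (75%).

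The response to infection was larger in both strains than the difference between them. At 2 dpi against naive, 1529 genes were called in PHIL mice (18.6%), of which 876 rose and 653 fell, and 1920 in WT mice (23.3%), of which 1076 rose and 844 fell. The median absolute response was 0.29 in PHIL and 0.34 in WT. These responses share no array, and 1107 genes were called in both in the same direction, which is 72.4% of the PHIL genes and 57.7% of the WT genes, with 1 gene called in opposite directions. Over the 8226 genes the PHIL response correlated with the WT response with r = 0.88 and a slope of 0.84, a description over genes that are not independent replicates. Pairs of arrays showed the same. Correlations between a PHIL and a WT array at 2 dpi were 0.986 to 0.990 over 9 pairs, against 0.989 to 0.990 within PHIL and 0.988 to 0.992 within WT, and an array at 2 dpi correlated with a naive array at 0.935 to 0.955. As root mean square distances, the PHIL to WT pairs were 0.292 to 0.352 apart, pairs within PHIL 0.291 to 0.305, pairs within WT 0.266 to 0.325, and pairs of 2 dpi with naive arrays 0.630 to 0.760.

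**Figure D1:**
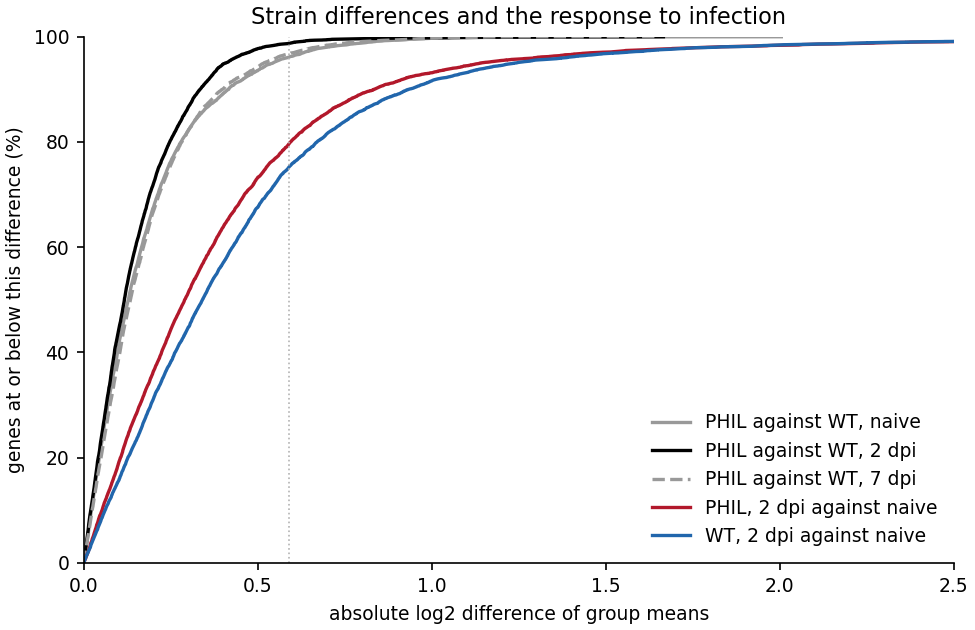
The horizontal axis is the absolute log2 difference of group means and the vertical axis the percentage of the 8226 genes at or below it; the dotted line marks 0.59. The PHIL against WT curve at 2 dpi (median 0.12) lies left of the PHIL and WT responses to infection (medians 0.29 and 0.34).

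Before infection and at 7 dpi the strain difference was of like median size, whereas more genes passed the thresholds at 7 dpi. The median absolute difference was 0.13 in naive mice, whose groups hold 2 arrays each, and 0.13 at 7 dpi. In naive mice 0 genes (0%) were called, with 677 at an unadjusted p under 0.05 (8.23%) and a smallest adjusted p of 0.0959. At 7 dpi, 40 genes were called (0.486%), with 1218 at an unadjusted p under 0.05 (14.8%). The count at 7 dpi was between 0 and 81 when 1 array was left out. A test of the change in the strain difference between 2 and 7 dpi called 0 genes (0%) in limma, with 550 at an unadjusted p under 0.05 and a smallest adjusted p of 0.625. The larger count at 7 dpi is therefore not shown to be a change since 2 dpi.

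Among genes higher in PHIL at 2 dpi, the largest differences were in genes of the liver. Of 13 genes with a difference of at least 1 on the log2 scale, 7 were in the list of hepatocyte genes (Serpina1b, Apoa1, Ambp, Serpina1d, Hpx, Apoa2 and Ttr), which encode proteins that the liver secretes into plasma. A further 3 of them, Cyp2a5, Mat1a and Fga, are also strongly expressed in liver but were not in the list, and Fga was singled out after its values were seen. Hpx, Cyp2a5, Mat1a and Erdr1, 4 of the 13, were not detected on any WT array at 2 dpi and have only a bound, of at least 1.12 to at least 1.42-fold. The count of 13 depended on the processing. It was 12 with median scaling, 3 with another background correction of offset 50, 1 with no background correction and 0 with the authors' normalised values. The list had 32 genes with a probe, of which 17 could be tested, and all 17 were detected on some array at 2 dpi. The other 15 include Alb, the gene of albumin, and Apoh, Fgb, Rbp4, Serpina1a, Cyp3a11, Tat and Tdo2. Of these 15, 13 were detected on 0 of the 16 arrays, and Cps1 and Fgg were each detected on 1 PHIL array at 2 dpi alone. The arrays that were high for the tested genes gave no detected signal of albumin. The Alb probe was detected on no array, so it cannot tell absent RNA from a probe that gives no signal. In the 17, 7 were higher and 0 lower at an unadjusted p under 0.05, against 4.34% and 5.15% of all genes, and their median difference was 0.86 on the log2 scale, against 0.00 for all genes. With the 5 tested genes that have only a bound set at that bound, the median was 0.44. It was also 0.44 with the authors' normalised values, with which 10 of the 17 were higher at that p. The count of 7 became 1 without PHIL replicate 2, WT replicate 1 or WT replicate 2, 2 without PHIL replicate 3, 12 without WT replicate 3 and 13 without PHIL replicate 1, and the median was then between 0.53 and 1.46. The filter on detection keeps such genes through the arrays on which they were high, so these figures hold only for the 17 tested genes.

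The levels of these genes differed between arrays of the same strain. The mean level of the 17 genes was 5.90, 7.55 and 7.30 on PHIL replicates 1, 2 and 3, against 5.60, 5.86 and 6.84 on WT replicates 1, 2 and 3. Thus 2 PHIL arrays and 1 WT array were high and the groups overlapped. On the same arrays 6, 16 and 17 of the 17 genes were detected in PHIL, against 4, 6 and 12 in WT. The mean level of the 17 genes on the naive arrays was between 5.57 and 5.68, and on those at 7 dpi between 6.00 and 6.62. With 3 arrays against 3, an exact two-sided permutation test cannot go below p = 0.10.

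Serpina1b, an alpha-1-antitrypsin, was at 5.02, 8.93 and 8.29 in PHIL, against 5.02, 4.81 and 7.42 in WT. Apoa1, the main protein of high-density lipoprotein, was at 5.15, 7.69 and 7.45 in PHIL, against 4.61, 4.57 and 6.29 in WT. Ttr, the carrier of thyroid hormone and retinol-binding protein, was at 4.68, 7.71 and 7.41 in PHIL, against 4.57, 4.66 and 7.41 in WT. The high arrays were the same for each gene, and for Ttr WT replicate 3 was at the level of PHIL replicate 3. Cyp2a5, a cytochrome P450, was at 4.45, 6.83 and 7.10 in PHIL and at 4.57, 4.64 and 5.31 in WT. Its other probes did not pass the filter on detection, and their differences were 0.08, 0.15 and 0.004, against 1.29. Mat1a, which makes S-adenosylmethionine in liver, was at 4.67, 7.21 and 6.32 in PHIL and at 4.63, 4.53 and 5.33 in WT. PHIL replicate 1 was thus among the low arrays for each of these genes, with WT replicates 1 and 2. Serpina1b, Serpina1c and Serpina1d are near-identical copies of one another, as are the Mup genes, so that their probes may share transcripts.

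Some hepatocyte genes did not follow that pattern. Trf, which encodes transferrin and is also made outside the liver, was at 10.39, 10.26 and 10.31 in PHIL, against 9.66, 9.96 and 9.93 in WT, with a difference of 0.47 (SE 0.12, limma adjusted p = 0.437). Its groups did not overlap, and its difference was 0.56 at 7 dpi. Cyp2e1 was at 9.69, 9.46 and 9.42 in PHIL and at 10.04, 10.03 and 9.86 in WT, so that PHIL was lower on every array. Mup2, a major urinary protein of liver, was at 6.02, 5.97 and 6.18 in PHIL and at 4.88, 6.51 and 7.01 in WT.

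**Figure D2:**
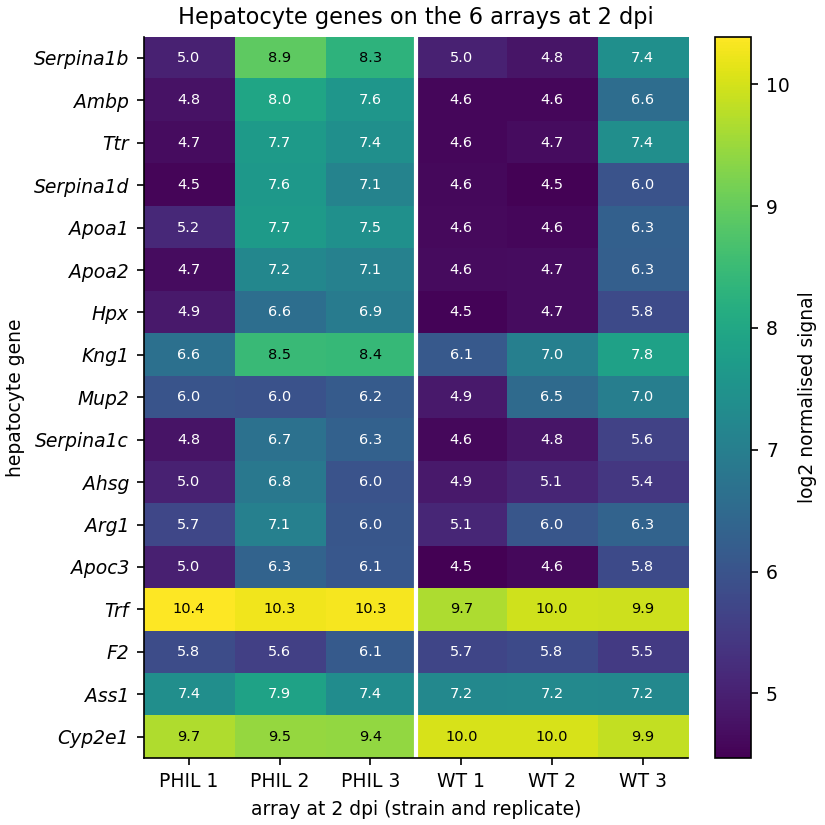
Colour and number give the log2 normalised signal of the 17 hepatocyte genes tested (rows) on the 3 PHIL arrays and 3 WT arrays at 2 dpi (columns), ordered by the range of a gene over the arrays. The upper rows are high on PHIL replicates 2 and 3 and WT replicate 3, and Trf, Ass1 and Cyp2e1 are high on every array.

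With the hepatocyte level of each array as a covariate, the median difference of the 17 genes was 0.02, against 0.86 without it, and without the 3 arrays high for these genes it was 0.11. Both values are low by construction, since the level is the mean of the same 17 genes and the 3 arrays were left out for that level. With the covariate 651 genes had an unadjusted p under 0.05, against 781, and without the 3 arrays 457 did, with a smallest adjusted p of 0.251. Of the 56 genes at least 1.5-fold higher in PHIL, 11 were in the hepatocyte list, and 27 of the 56 were still at least 1.5-fold higher with the covariate. Of the 47 genes at least 1.5-fold lower, 34 were still so. Other genes took the place of those lost, so that 62 genes were at least 1.5-fold higher and 91 lower with the covariate, and 129 higher and 194 lower without the 3 arrays. Neither setting called a gene at 2 dpi. With the authors' normalised values and neither change, 12 genes were at least 1.5-fold higher and 2 lower. Why the hepatocyte genes were high on the 3 arrays was not tested.

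Outside the liver genes, few single genes stood out, and none passed the adjusted threshold. The 3 genes of smallest p were Ptprb, Chodl and Tesmin, all 3 of which were called when arrays were weighted by their quality (limma adjusted p = 0.0278 each), and whose adjusted p over all alternatives was between 0.0234 and 0.732. Ptprb, the vascular endothelial protein tyrosine phosphatase, was at 6.97, 7.02 and 7.03 in PHIL, against 7.58, 7.64 and 7.78 in WT. Its groups did not overlap, and its difference was -0.66 (SE 0.11, limma adjusted p = 0.114). It was at 7.33 and 7.46 in naive PHIL mice and at 7.42 and 7.40 in naive WT mice. At 7 dpi it was lower in PHIL by a difference of -0.72, which was called (adjusted p = 0.032). Its difference was between -0.71 and -0.61 when 1 array was left out.

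Chodl, which encodes chondrolectin, a membrane lectin of muscle and motor neurons, was at 5.76, 6.33 and 5.85 in PHIL, against 6.96, 7.03 and 7.08 in WT. The difference was -1.04 (SE 0.17, limma adjusted p = 0.114), with the probe detected on 1 of 3 PHIL arrays and 3 of 3 WT arrays. Chodl was called, with Cpsf6, when PHIL replicate 2 was left out (-1.22, limma adjusted p = 0.0234). At 7 dpi its difference was -0.80 (adjusted p = 0.0513) and in naive mice -0.30.

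Tesmin, a gene best known from the testis, ran the other way. It was at 6.98, 6.52 and 6.99 in PHIL, against 6.13, 5.45 and 5.76 in WT, a difference of 1.05 (SE 0.19, limma adjusted p = 0.17). In naive mice it was lower in PHIL, with 5.49 and 5.92, against 6.72 and 6.75 in WT, a difference of -1.03. It rose by 1.12 in PHIL at 2 dpi against naive (adjusted p = 0.00132) and fell by 0.95 in WT (adjusted p = 0.00274). The strain difference at 2 dpi less that in naive mice was 2.08, and Tesmin was the 1 gene of 8226 called in that test (0.0122%, limma adjusted p = 0.0466), in which 573 genes had an unadjusted p under 0.05. That call was lost for 13 of the 16 arrays when 1 was left out. For 12 of them no gene was called, and without naive PHIL replicate 1 the gene called was Sult1d1 instead.

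Other genes among the 10 of smallest p had adjusted p of 0.318 to 0.335. Ube2a, a ubiquitin-conjugating enzyme, was at 7.81, 7.82 and 7.95 in PHIL, against 8.33, 8.25 and 8.34 in WT. Slc25a10, the mitochondrial dicarboxylate carrier, was at 6.94, 6.74 and 6.92 in PHIL, against 6.26, 5.96 and 6.21 in WT. Both sets of arrays were apart, as they were for 599 genes that did not overlap and were higher in PHIL (7.28%) and 673 that did not overlap and were lower (8.18%).

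Myh4, the myosin heavy chain of the fastest muscle fibres, had the largest difference of the genes lower in PHIL. It was at 6.82, 7.22 and 7.61 in PHIL, against 9.85, 8.66 and 7.96 in WT, a difference of -1.61 (SE 0.55, limma adjusted p = 0.454). The WT arrays spread over more than 1.5 on the log2 scale. The difference was -1.10 without WT replicate 1 and -2.04 without WT replicate 3. In naive mice, in which no gene was called, Myh4 was at 6.72 and 4.99 in PHIL, against 8.47 and 7.24 in WT. The difference was -0.70 at 7 dpi. Fkbp5, a target of the glucocorticoid receptor, was at 6.96, 7.24 and 7.06 in PHIL, against 7.52, 8.02 and 8.33 in WT, a difference of -0.87 (SE 0.27, limma adjusted p = 0.441). Elovl6, which lengthens fatty acids, was at 8.75, 8.16 and 8.66 in PHIL, against 7.02, 7.22 and 7.68 in WT, a difference of 1.22 (SE 0.35, limma adjusted p = 0.441). Elovl6 and Fkbp5 did not overlap between the groups, and for both the naive groups lay near each other, with differences of 0.12 and -0.32.

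Other large differences were in genes that 1 array set apart or that were dim. Ucp1, the uncoupling protein of brown fat, was at 7.43, 4.64 and 7.44 in PHIL, against 7.37, 7.55 and 7.59 in WT, so that only PHIL replicate 2 was low. Csn1s2b was detected on WT replicate 1 alone, and it was at least 1.25-fold higher in WT on the bound that the PHIL arrays allow (limma adjusted p = 0.6). Erdr1 was at 7.40, 5.91 and 5.93 in PHIL, against 4.86, 5.74 and 5.47 in WT, with PHIL replicate 1 the highest array, and the groups did not overlap. Its probe was detected on no WT array, and it was at least 1.42-fold higher in PHIL on that bound (limma adjusted p = 0.466). Lyz1, a lysozyme, was not well above background on any PHIL array and was at least 1.55-fold higher in WT on that bound (limma adjusted p = 0.454), but its kept probes disagreed in sign.

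**Figure D3:**
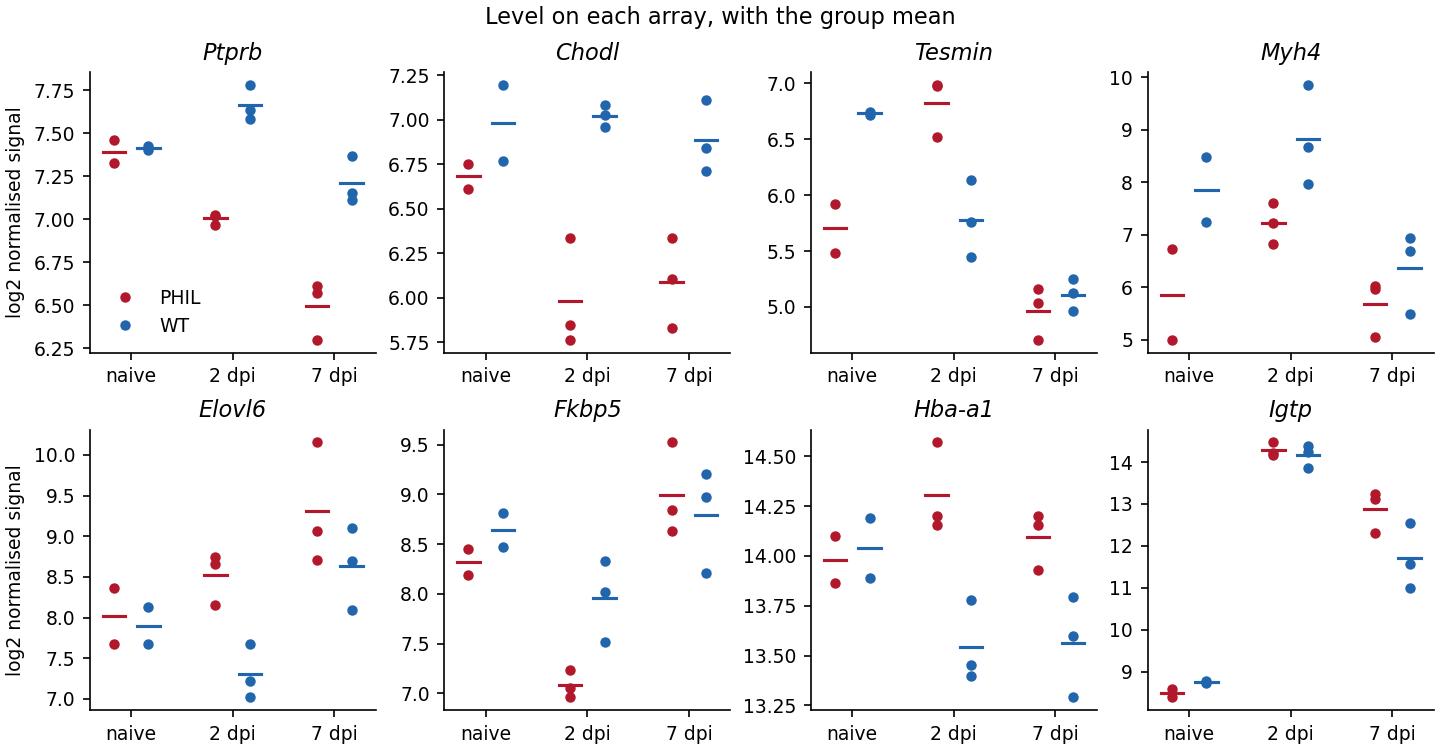
Each point is 1 array and each bar a group mean, as log2 normalised signal (vertical axis) in naive mice and at 2 and 7 dpi (horizontal axis), with PHIL in red and WT in blue. At 2 dpi the PHIL and WT points do not overlap for the genes plotted other than Igtp, which was at 14.18 to 14.47 in PHIL and 13.85 to 14.38 in WT.

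Some red cell transcripts had higher levels on the PHIL arrays. The mean level of 6 erythroid genes was 7.87, 8.33 and 7.79 in PHIL, against 7.73, 7.53 and 7.46 in WT, so that the groups did not overlap. An exact two-sided permutation test of that level gave p = 0.1, its floor, and 0.633 adjusted over 19 cell type lists. The mast cell and keratinocyte lists gave the same p. Of the 6 erythroid genes, 4 were above 0, beside 4128 of all 8226 genes. Hba-a1, an alpha-globin gene, was at 14.20, 14.57 and 14.15 in PHIL, against 13.78, 13.40 and 13.45 in WT, a difference of 0.77 (SE 0.16, limma adjusted p = 0.318). Alas2, the enzyme that starts heme synthesis in red cell precursors, was at 8.57, 8.95 and 8.15 in PHIL, against 7.70, 7.50 and 7.76 in WT, a difference of 0.90 (SE 0.23, limma adjusted p = 0.397). Neither gene overlapped between the groups, and in naive mice their differences were -0.06 and -0.01. Of the 6 genes 3 were higher and 0 lower at an unadjusted p under 0.05, beside 4.34% and 5.15% of all genes. Their median was 0.48, which was 0.22 without the 3 arrays high for hepatocyte genes. The part of red cell RNA in the other differences was not tested. Hba-a1 and Hba-a2 share most of their sequence, so its probe may take up both. More cells and more RNA in each cell cannot be told apart in RNA of whole tissue, here and in the lists below.

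Markers of other cell types gave smaller differences. Mast cell genes had a median of 0.23 over 6 genes, with Mcpt4, a mast cell protease, at 6.67, 6.55 and 6.22 in PHIL, against 6.36, 5.41 and 5.54 in WT. Hdc, which makes histamine, was at 8.59, 9.03 and 8.85 in PHIL and at 8.09, 8.46 and 8.46 in WT. Endothelial genes were mixed, with 3 of 20 higher (Emcn, Plvap and Aplnr) and 1 lower (Sox18) at an unadjusted p under 0.05 and a median of 0.06, beside 4.34% of all genes higher and 5.15% lower. When 1 array was left out, 2 to 4 were higher and 1 to 2 lower. Plvap, a protein of capillary fenestrae, was at 9.27, 8.89 and 9.02 in PHIL, against 8.53, 8.70 and 8.74 in WT. The endothelial transcription factor Sox18 was at 7.28, 7.41 and 7.42 in PHIL, against 7.83, 7.94 and 7.93 in WT. Macrophage genes had a median of 0.03 over 23 genes, with Aif1 higher and Cx3cr1 and Lyz1 lower. The chemokine receptor Cx3cr1 was at 6.43, 6.00 and 5.73 in PHIL, against 6.57, 6.68 and 6.71 in WT. T and NK cell genes had a median of 0.18 over 14 genes, and Cd3g alone had an unadjusted p under 0.05. Of the 14, 13 were above 0, beside 4128 of all 8226 genes.

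The interferon response was strong in both strains at 2 dpi. Of 23 genes of the interferon-gamma list, the median response to infection was 3.35 in PHIL and 3.18 in WT on the log2 scale. Igtp, an interferon-induced GTPase that acts against intracellular pathogens, was at 14.22, 14.47 and 14.18 in PHIL, against 13.85, 14.38 and 14.24 in WT. It rose by 5.81 over naive mice in PHIL (limma adjusted p = 7.8e-08) and by 5.40 in WT (1.3e-07). The strain difference was 0.13, with a 95% interval of -0.54 to 0.80. Gbp2, a guanylate-binding protein, was at 13.98, 14.18 and 14.08 in PHIL, against 13.91, 14.19 and 14.04 in WT, and rose by 3.70 in PHIL and by 3.68 in WT. For both genes the groups overlapped at 2 dpi.

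The chemokine Cxcl9, which draws T cells, was at 12.44, 12.92 and 12.22 in PHIL, against 11.59, 12.25 and 12.06 in WT, a difference of 0.56 (SE 0.32, limma adjusted p = 0.608). Irf1, Irf7, Irgm2, Gbp7 and Cxcl10 had differences of 0.05, 0.33, 0.11, 0.31 and 0.32, and each had an adjusted p of at least 0.802. The kept probes of Irf1 disagreed in sign. Of all genes, 4.34% were higher and 5.15% lower at an unadjusted p under 0.05. Over the 23 genes 1 was higher (Psmb10, a subunit of the immunoproteasome) and 1 lower (Iigp1) at that p. Of the 23, 20 were above 0, beside 4128 of all 8226 genes, and the median was 0.25. This median rested on 1 array. WT replicate 1 had the lowest mean level of the list, 9.67, against 10.11 and 10.12 on WT replicates 2 and 3 and 10.07 to 10.33 in PHIL, and without it the median was -0.01. With the Eif2s3y level, also set apart on that array, as a covariate it was -0.01 as well, and with the hepatocyte level it was 0.08. At 7 dpi the median was 0.71.

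Antigen presentation genes had medians of the same order. Of 8 class II genes 4 were higher and 0 lower at an unadjusted p under 0.05 (H2-DMa, H2-Eb1, Cd74 and H2-Ab1), with a median of 0.29. Of all genes, 4.34% were higher and 5.15% lower at that p, the share to set beside each count of this paragraph. H2-DMa, which helps load peptides on class II molecules, was at 10.22, 10.32 and 10.31 in PHIL, against 9.58, 10.03 and 9.68 in WT. Cd74, the invariant chain, was at 12.33, 12.29 and 12.15 in PHIL, against 11.95, 11.90 and 11.91 in WT. The groups did not overlap for these genes, and 7.28% of all genes were likewise higher in PHIL without overlap. The class II median was 0.19 without WT replicate 1 and 0.31 without the 3 arrays high for hepatocyte genes. The count of 4 was 2 without PHIL replicate 1 and 3 or 4 without any other array. It was 3 with the hepatocyte or the Eif2s3y level as a covariate. Of 15 class I genes 4 were higher and 0 lower (H2-T10, Tapbp, Tap2 and H2-Q8), with a median of 0.23 that was 0.15 without WT replicate 1. The class I count of 4 became 0 without WT replicate 1, 1 without PHIL replicate 1 or 3 and 2 without PHIL replicate 2, and it was 1 with the hepatocyte or the Eif2s3y level as a covariate. Genes of the H2 complex resemble one another, and their probes may share transcripts. Type I interferon genes had a median of 0.24 over 24 genes, with Oasl1 alone at an unadjusted p under 0.05. Of the 24, 22 were above 0, beside 4128 of all 8226 genes. The median was 0.12 without WT replicate 1, 0.08 with the hepatocyte level as a covariate and 0.02 without the 3 arrays high for hepatocyte genes. Complement and acute phase genes had a median of 0.24 over 14 genes, with 3 higher (Orm1, C2 and Hpx), which became 1 without WT replicate 1 or PHIL replicate 3, and a median of 0.25 in naive mice.

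**Figure D4:**
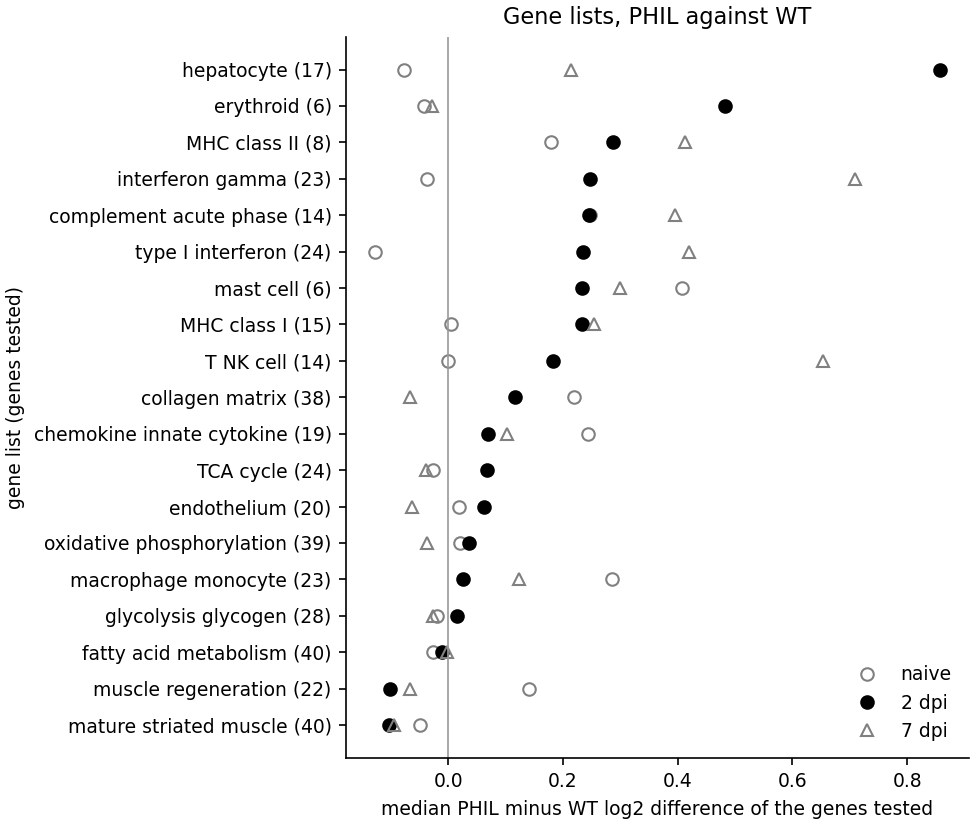
Each row is a gene list with the number of genes tested, and the horizontal axis is the median PHIL minus WT log2 difference of its genes in naive mice, at 2 dpi and at 7 dpi. At 2 dpi the hepatocyte list is at 0.86, and the interferon-gamma list is at 0.25, against 0.71 at 7 dpi.

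Muscle gene lists had medians slightly below 0. Of 22 genes of muscle regeneration, 5 were lower and 1 higher at an unadjusted p under 0.05, with a median of -0.10, beside 5.15% of all genes lower and 4.34% higher. The 5 became 2 without PHIL replicate 3 and 3 without PHIL replicate 1 or WT replicate 3. With the hepatocyte level as a covariate they became 2, against 7 with the authors' normalised values and 8 with median scaling. Myf6, a myogenic factor of mature fibres, was at 11.08, 11.10 and 11.02 in PHIL, against 11.48, 11.52 and 11.47 in WT, a difference of -0.42 (SE 0.10, limma adjusted p = 0.382). Myod1, which commits cells to the muscle lineage, had a difference of -0.49 (SE 0.19, limma adjusted p = 0.465). Neither gene overlapped between the groups, and their differences in naive mice were 0.18 and 0.43. The other 3 lower genes were Xirp1, Mustn1 and Runx1, all of which rose on infection in both strains, and Ky was higher. Of 40 genes of mature striated muscle 4 were lower (Myh4, Synm, Mybpc2 and Fbxo32, whose kept probes disagreed in sign) and 0 higher, with a median of -0.10. The 4 became 1 without WT replicate 1 and 2 without PHIL replicate 3. Among immediate early genes 4 of 18 were higher (Klf2, Junb, Fos and Dusp1) and 0 lower at an unadjusted p under 0.05, although the median of the list was -0.10. The 4 became 2 without WT replicate 2. With median scaling, which moved the median of all genes to -0.12, 1 was higher and 5 lower. With the authors' normalised values 6 were higher and 2 lower, and with the hepatocyte level as a covariate 1 was higher and 0 lower. Klf2, a flow-sensitive factor of endothelium, was at 9.78, 9.76 and 9.67 in PHIL, against 9.12, 9.28 and 9.29 in WT.

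Metabolic gene lists had medians near that of all genes at 2 dpi. Their counts at an unadjusted p under 0.05 stand beside 4.34% of all genes higher and 5.15% lower. Of 39 oxidative phosphorylation genes 0 were at an unadjusted p under 0.05 in either direction in limma, none of them called, with a median of 0.04. Of 24 TCA cycle genes 2 were higher (Pcx and Dlst), with a median of 0.07, and 1 to 4 were when 1 array was left out, with 1 without PHIL replicate 1 and 4 without WT replicate 1. Of 40 fatty acid genes 5 were higher and 3 lower, with a median of -0.01. The 5 became 1 without PHIL replicate 1, 2 without WT replicate 2 and 3 without PHIL replicate 3. The 3 became 0 without WT replicate 1 and 0 with the hepatocyte level as a covariate. The higher ones included genes of fatty acid synthesis, such as Scd1, which was at 11.82, 11.66 and 11.64 in PHIL, against 11.08, 10.65 and 10.95 in WT, and Acly, at 11.91, 11.57 and 11.84 in PHIL, against 11.27, 11.05 and 11.54 in WT. The lower ones included genes of fatty acid oxidation. Hadhb, a subunit of the mitochondrial trifunctional protein, was at 10.29, 10.18 and 10.24 in PHIL, against 10.75, 10.52 and 10.53 in WT. Acadsb, an acyl-CoA dehydrogenase, had a difference of -0.27 (SE 0.10, limma adjusted p = 0.456). Neither Hadhb nor Acadsb overlapped between the groups. Of 28 genes of glycolysis and glycogen 2 were higher (Pfkl and Pgam1) and 3 lower (Fbp2, Pgm1 and Phkb), which were 1 to 2 higher and 2 to 4 lower when 1 array was left out.

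Genes of type 2 immunity, the setting in which eosinophils usually act, gave no difference at 2 dpi that passed the test. Of 11 type 2 cytokine and eosinophil attractant genes and of 7 genes of alternatively activated macrophages, 0 had an unadjusted p under 0.05 in limma and 0 were called, with medians of 0.06 and 0.07. Retnla, the gene of RELM-alpha, was at 8.85, 9.12 and 9.65 in PHIL, against 9.29, 9.57 and 9.58 in WT, with a difference of -0.28 (SE 0.30, limma adjusted p = 0.827). Among 19 chemokine and innate cytokine genes, 3 were higher (Cxcl1, Tgfb1 and Ccl21a) and 0 lower at an unadjusted p under 0.05, with a median of 0.07. Of all genes, 4.34% were higher and 5.15% lower. The 3 became 0 without WT replicate 1. Cxcl1, which draws neutrophils, was at 8.14, 8.16 and 8.47 in PHIL, against 7.40, 7.94 and 7.73 in WT. Ccl21a has near-identical copies, whose transcripts its probe may share.

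Growth factor and hormone-linked genes gave a few further differences, beside 4.34% of all genes higher and 5.15% lower at an unadjusted p under 0.05. Among 15 genes of insulin and Akt signalling, Igf1, Igfbp4 and Igf2 were higher and Tbc1d1 lower at an unadjusted p under 0.05, with a median of -0.05. Igf1, which stimulates muscle growth, was at 9.53, 9.55 and 9.51 in PHIL, against 8.95, 9.33 and 8.90 in WT, a difference of 0.47 (SE 0.14, limma adjusted p = 0.441). Its groups did not overlap, and its difference was 0.25 in naive mice and 0.18 at 7 dpi. Among 19 genes linked to glucocorticoids and fasting, Per1, Ddit4 and Angptl4 were higher and Fkbp5 and Fbxo32 lower at that p. The 3 higher became 0 without PHIL replicate 1 or WT replicate 2 and 1 without WT replicate 3. Slc2a4, the insulin-responsive glucose transporter of muscle, was at 9.70, 9.42 and 9.47 in PHIL, against 9.71, 9.09 and 9.26 in WT, and fell on infection by 0.85 in PHIL and by 1.09 in WT.

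The genes called at 7 dpi pointed mostly the same way at 2 dpi. They were chosen by their difference at 7 dpi, so that their larger size there follows from the choice. Of 33 genes lower in PHIL at 7 dpi, 29 were below 0 at 2 dpi and 13 had an unadjusted p under 0.05, with a median of -0.27 at 2 dpi and -0.75 at 7 dpi. Of all genes, 49.8% were below 0 at 2 dpi. Of 7 genes higher at 7 dpi, 6 were above 0 at 2 dpi, with medians of 0.14 at 2 dpi and 0.97 at 7 dpi. Orm1, an acute phase protein, was the 1 of these 7 with an unadjusted p under 0.05 at 2 dpi, at 7.80, 7.55 and 7.52 in PHIL, against 6.84, 6.96 and 7.12 in WT. The 2 contrasts share no array but share the estimate of each gene's spread. Ptprb was at nearly the same difference at both times, -0.66 and -0.72. Mdh1 and Idh2, enzymes of the malate shuttle and of isocitrate oxidation, were at 0.16 and 0.07 at 2 dpi and at -0.62 each at 7 dpi. Ifng, the interferon-gamma gene, was at -0.16 at 2 dpi and at 1.16 at 7 dpi.

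**Figure D5:**
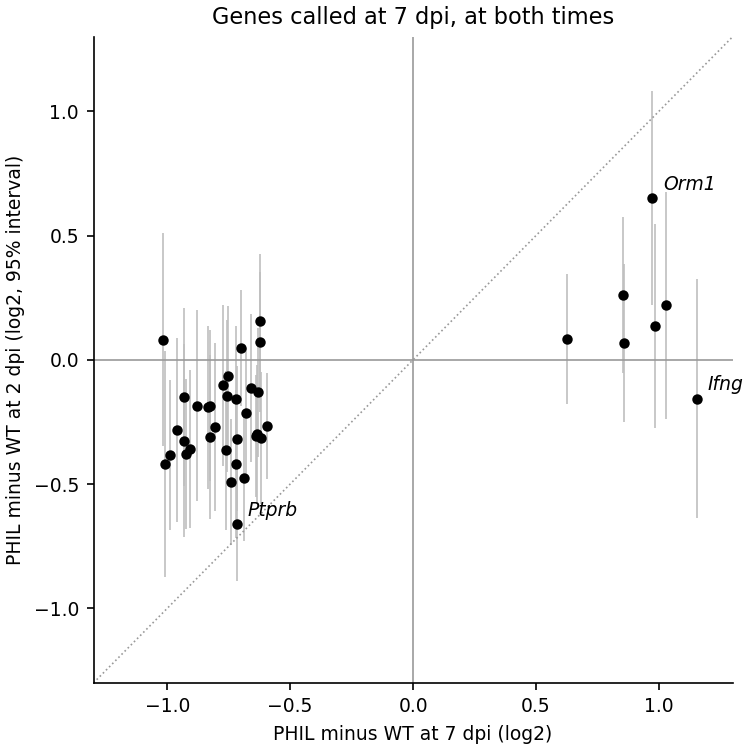
Each point is 1 of the 40 genes called at 7 dpi, with the PHIL minus WT log2 difference at 7 dpi on the horizontal axis and that at 2 dpi, with its 95% interval, on the vertical axis; the dotted line marks equal differences. Of the 33 genes lower at 7 dpi, 29 lie below 0 at 2 dpi, and Ptprb lies close to the line.

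Of the 781 genes at an unadjusted p under 0.05 at 2 dpi, 549 had the same sign at 7 dpi (70.3%, against 58.6% of the other genes). Of the 781, 190 had the same sign and an unadjusted p under 0.05 at 7 dpi (24.3%, against 9.97% of the other genes), and 17 had the opposite sign with an unadjusted p under 0.05. In naive mice 452 had the same sign (57.9%, against 51% of the other genes), and 64 had it with an unadjusted p under 0.05 (8.19%, against 4.57%).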

How the data were processed

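RNA of whole diaphragms, kept in RNAlater and isolated with miRNeasy, was hybridised as biotin-labelled cRNA. The authors exported signals from GenomeStudio 1.8 and deposited them as unnormalised linear intensity. Beside each signal they deposited its detection p-value. The authors also deposited normalised intensity values, with array medians of 185.2 to 185.6, which served as an alternative. Their methods name lumi, with subtraction of background, a variance-stabilising step and robust splines. Fold changes of the paper's tables were not used.

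Groups were taken from the labels. The 16 PHIL and WT arrays were background-corrected and quantile normalised with neqc of limma 3.58.1 (R 4.3.3, offset 16). Of 25697 probes, 11336 had a detection p under 0.01 on at least 2 arrays. Symbols came from the platform annotation (23978 probes with 1 gene, 23962 updated through Entrez), and the probe of highest interquartile range stood for each of 8226 genes. limma fitted 6 groups (residual df 10), with Benjamini-Hochberg adjustment over all genes. The number of arrays limits the precision. The fit was tested on simulated data. Bounds of folds were set against the lowest detected signal of the dim arrays. Replicate numbers did not pair the mice.

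Gene lists and members were chosen with earlier results of these data known. The rule named the 10 genes of largest difference in each direction, the list members of smallest p, and genes the study names. Alternatives were other background corrections, normalisations, filters, probes, fits, thresholds, covariates and leaving out each array.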

Additional observations from a re-analysis of the deposited data

Results flagged for a closer look

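Tesmin was singled out because it was called in the test of the strain difference at 2 dpi against that in naive mice. Its adjusted p in that test was thus part of the choice. The PHIL minus WT log2 difference was 1.05 at 2 dpi and -1.03 in naive mice, and the difference between them was 2.08 (limma adjusted p = 0.0466, with a range of the smallest adjusted p in that test of 0.0154 to 0.295 over its alternatives). It was higher in PHIL on 3 of 3 arrays at 2 dpi and lower in PHIL on 2 of 2 naive arrays. The probe was detected on 3 of 3 PHIL arrays and 1 of 3 WT arrays at 2 dpi. At 7 dpi the difference was -0.15.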

How the results depend on the processing

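The 0 genes called in PHIL against WT at 2 dpi stayed between 0 and 2 when 1 array was left out (Mat1a without PHIL replicate 1, Chodl and Cpsf6 without PHIL replicate 2), and became 3 with array weights and 10 with an unadjusted p and a 2-fold threshold. The smallest adjusted p was between 0.0188 and 0.539. The 1 gene called in the test of 2 dpi against naive (Tesmin) became 0 with median scaling, with all 24 arrays normalised together, with no filter on dim probes, with only the arrays compared, with the hepatocyte and Eif2s3y levels as covariates, without the 3 arrays high for hepatocyte genes and without the 6 arrays of high Eif2s3y, the last 2 being chosen after seeing the data. It became 2 with the hepatocyte level as a covariate (Kti12 and Tesmin) and 54 with an unadjusted p and 2-fold, and leaving out 1 array gave 0 to 4, with 4 without WT replicate 1 at 2 dpi. The 0 genes of 7 against 2 dpi became 16 with an unadjusted p and 2-fold and 1 (Grb10, -3.01) without the 6 arrays of high Eif2s3y, and stayed 0 when any 1 array was left out. The cause of these changes was not tested. The replicate number as a block gave 0 calls in each of the 3 tests. Same-numbered arrays at 2 dpi had correlations of their deviations of 0.07, -0.05 and 0.01. Median scaling moved the median of all genes to -0.12 at 2 dpi, and the share of higher genes among those at an unadjusted p under 0.05 was 9.18% with it, against 45.7% without. Of 25 gene lists with a median above 0, 10 lay below 0 with it, among them those of macrophages, endothelium, type 2 cytokines, chemokines, the TCA cycle, oxidative phosphorylation and glycolysis, and all 10 were above that shift. The hepatocyte level was higher in PHIL under its 14 alternatives, by 0.41 to 1.32. Normalising only the 6 arrays at 2 dpi gives no value for the tests between times. Dim genes such as Lyz1 and Hpx, not well above background in 1 group, have only a bound.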
